A study of Mus musculus with 27 samples.

Results

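The genes described here present peptides on major histocompatibility complex (MHC) class II molecules, or mark the cells that do so. They are 10 named genes of the 16428 tested in mouse liver: H2-Aa, H2-Ab1, H2-Eb1, Cd74, Ciita, H2-DMa, H2-DMb1, H2-Oa, Cd86 and Xcr1. Each was found by its symbol, and all 10 passed the filter on low counts. RNA was sequenced in bulk from whole livers of wildtype BALB/c mice, an inbred strain, with 1 library per animal. The 27 animals covered 7 stages of a reproductive cycle. Nulliparous mice (NUL, 4 animals) had not been pregnant, and all other mice had been mated when 10 to 12 weeks old. Lactating mice (LAC, 3) were taken at lactation day 10. In the remaining groups pups were removed after 10 to 14 days of lactation, with litters made even in size. Those mice were taken 2, 4, 6 and 8 days later, which the labels call involution (ID2, 3; ID4, 4; ID6, 6; ID8, 3), or 4 weeks later (regressed, REG, 4). All groups were matched for age and shared the strain and genotype, and the labels name no drug or transgene. A library mixes the RNA of all liver cells, so fewer cells of a type and less RNA per cell cannot be told apart.

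A class II molecule is a pair of an alpha and a beta chain, which shows peptides from engulfed material to CD4+ T cells. The invariant chain, encoded by Cd74, fills the groove of a new class II molecule and guides it to endosomes, where H2-DM helps to exchange its remnant for a peptide and H2-O restrains H2-DM. Ciita encodes the transactivator that switches on these genes, by joining factors bound to the X and Y boxes of their promoters. In liver, class II is carried mainly by dendritic cells, B cells and part of the macrophages, with Kupffer cells the resident macrophages.

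Promoter sequences are shown for 2 members and 2 relatives, because the X and Y boxes are what ties these genes to 1 transactivator. Sequences are from RefSeq on GRCm38.p6, read 5′ to 3′ on the gene's strand. Capitals mark the Y box (TGATTGG), an X box core (AAC, any 2 bases, ATG, any base, TG) or the cyclic AMP response element found in X2 boxes (TGACGTCA). The windows of H2-Aa (chr17:34287860-34287919, minus strand), H2-Eb1 (chr17:34305760-34305819, plus strand), H2-DMb2 (chr17:34145111-34145170, plus strand) and H2-Ob (chr17:34238800-34238859, plus strand) were:
H2-Aa: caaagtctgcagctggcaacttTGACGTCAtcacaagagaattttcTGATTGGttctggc
H2-Eb1: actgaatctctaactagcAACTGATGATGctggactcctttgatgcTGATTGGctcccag
H2-DMb2: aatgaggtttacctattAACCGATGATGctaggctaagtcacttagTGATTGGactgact
H2-Ob: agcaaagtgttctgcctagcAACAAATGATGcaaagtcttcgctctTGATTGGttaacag

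The 250 bases before each RefSeq start were searched on both strands, and none of the printed matches overlapped another. The table held promoters of 6 of the 10 members. A Y box was found in 7.23% of all 32851 promoters of that length, an X box core in 0.466% and TGACGTCA in 1.55%. An X box core followed by a Y box on the gene's strand, with at most 30 bases between them, was found in 5 promoters, 0.0152% of all. These belonged to H2-Eb1, H2-DMb1, H2-DMb2, H2-Eb2 and H2-Ob, with 15 to 18 bases between the boxes. The letters of the motif were written with class II promoters in view, so this count describes the gene family and is no test. H2-Aa and H2-Oa had a Y box without these X core letters, and H2-DMa and Xcr1 had no match in the window.

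Libraries held 41120650 to 75664540 expected counts. Levels are given as CPM, the count divided by the scaled library total and shown on a common scale. A difference was called where edgeR's two-sided quasi-likelihood test gave an adjusted p (Benjamini-Hochberg) under 0.05. The hepatocyte list, led by Alb, had all 8 genes among those tested and summed to between 89300 and 232000 CPM per library. The library ID2_31 stood apart: 14 genes of pancreatic acinar cells summed to 2150 CPM there, to 167 CPM in library ID4_15, to 51.0 CPM in library ID8_98b and to at most 35.6 CPM in each other library. Animals with a title number under 200 occurred in ID2 (2 of 3), ID4 (2 of 4) and ID8 (3 of 3) only. What the number stands for is not given in the labels.

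Over the 7 stages, 8 of the 10 members differed (edgeR, joint test of all stages), where 27% of all genes did. The largest adjusted p among the 8 was 0.0142, for H2-DMa. Xcr1 (adjusted p = 0.0902) and H2-Oa (adjusted p = 0.173) did not pass. In LAC against NUL, 8 of the 10 were lower and none was higher, beside 6.0% of all genes called lower. The members' median log2 fold change was -1.22, against -0.00942 over all genes. The 2 members not called were Cd86 and H2-Oa. In 8 members, Cd86 among them and H2-DMa not, every LAC library lay below every NUL library, as in 11.2% of all genes. The count of 8 rested partly on single animals, since 4 remained without LAC_213, 4 without LAC_240, 6 without NUL_220 and 6 without NUL_226. Of all members, H2-Aa, H2-Eb1 and Cd74 kept their call in LAC against NUL in each of these fits and in all other settings run.

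H2-Aa (chr17:34282744-34287823, minus strand, GRCm38) encodes the alpha chain of the I-A molecule. It stood at 14.3, 11.1, 16.9 and 13 CPM in the 4 NUL libraries and at 6.28, 4.4 and 3.62 CPM in the 3 LAC libraries. The groups did not overlap. H2-Aa fell by 1.54 on the log2 scale (SE 0.292, edgeR adjusted p = 0.00142). After weaning it stood at 8.38, 6.77 and 5.34 CPM in ID2 and at 8.53, 12.5, 8.67 and 11.1 CPM in ID4. All ID4 libraries lay above all ID2 libraries, as in 7.93% of all genes for that step, and the difference was not called (log2 fold change 0.57, edgeR adjusted p = 0.37). In ID6 the lowest, median and highest libraries were at 11.7, 16.1 and 27.3 CPM. ID8 gave 16.4, 17.8 and 14.1 CPM, and REG gave 24.4, 15, 12.2 and 22.2 CPM. Each of the late stages overlapped the NUL range and went beyond its highest animal.

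H2-Ab1 (chr17:34257689-34269419, plus strand) is the beta chain of I-A. Its libraries were at 23.1, 15.9, 25.1 and 18 CPM in NUL and at 10.7, 8.85 and 8.21 CPM in LAC. All LAC libraries were lower (log2 fold change -1.15, SE 0.283, edgeR adjusted p = 0.0104). This call was lost without LAC_240 (edgeR adjusted p = 0.0543). ID2 stayed near LAC at 12.2, 11.2 and 8.5 CPM, and ID4 reached 12.5, 21.9, 14.3 and 17.3 CPM. ID6 ran from 18.5 through a median of 25.3 to 41.1 CPM. ID8 gave 21.1, 25.7 and 22.2 CPM and REG 40.8, 25.3, 19.2 and 35.7 CPM, so 3 of the 4 REG animals were above every NUL animal.

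H2-Eb1 (chr17:34305867-34316674, plus strand) is the beta chain of the second class II molecule, I-E. NUL libraries were at 16.7, 12.4, 17.9 and 15 CPM, and LAC libraries at 6.66, 5.67 and 6.11 CPM, with no overlap. H2-Eb1 fell by 1.33 on the log2 scale (SE 0.279, edgeR adjusted p = 0.00318). At ID2 it was still at 7.7, 7.16 and 5.62 CPM and below every NUL library (log2 fold change -1.18, SE 0.277, edgeR adjusted p = 0.0201). ID4 gave 8.33, 13.4, 9.07 and 11.7 CPM. ID6 ran from 13.9 through 17.7 to 30 CPM, ID8 gave 17.2, 17.4 and 18.1 CPM and REG 33.1, 18.3, 13.9 and 26.1 CPM. The 3 ID8 animals lay close together, while the 4 REG animals were spread widely.

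Cd74 (chr18:60803848-60812652, plus strand), the invariant chain, was the most abundant member per length, with an average of 93.4 TPM (transcripts scaled for length and library) in NUL. On the same per-length scale in NUL, H2-Ab1 was at 27, H2-Aa at 23.0, H2-Eb1 at 20.3, H2-DMa at 3.21, Cd86 at 1.67 and H2-DMb1 at 1.37 TPM. Ciita, H2-Oa and Xcr1 were lowest, at 0.33, 0.167 and 0.155 TPM. Cd74 libraries were at 86.3, 59.9, 87.2 and 72.1 CPM in NUL and at 38.2, 31.2 and 27.6 CPM in LAC. All LAC animals were lower (log2 fold change -1.24, SE 0.255, edgeR adjusted p = 0.00286). ID2 gave 50.5, 38.2 and 30.9 CPM, also without overlap with NUL (log2 fold change -0.94, SE 0.252, edgeR adjusted p = 0.043). ID4 gave 44.6, 75.9, 48.4 and 62.5 CPM, and ID6 ran from 77.0 through 93.4 to 138 CPM, above every ID4 library. ID8 was at 77.4, 79.9 and 85.3 CPM and REG at 147, 99.3, 67.2 and 114 CPM.

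**Figure D1:**
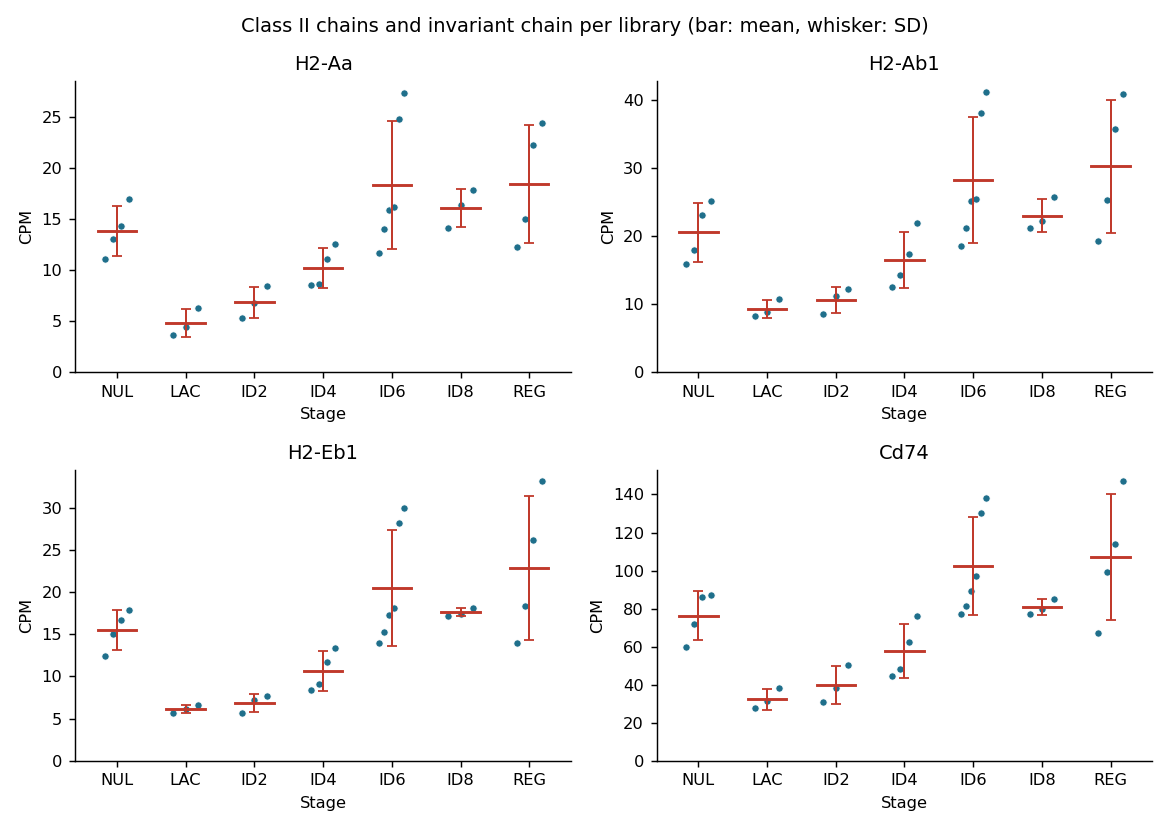
Level of H2-Aa, H2-Ab1, H2-Eb1 and Cd74 in CPM (vertical axes, from 0) at the 7 stages (horizontal axes). Points are libraries, bars are means and whiskers are SD; in all 4 genes the LAC points lie below every NUL point, with Cd74 at 27.6 to 38.2 CPM in LAC and 59.9 to 87.2 CPM in NUL.

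These 4 genes shared 1 order of mean levels, from LAC through ID2, ID4, NUL, ID8 and ID6 to REG. The highest mean exceeded the lowest by 3.86 times in H2-Aa, 3.26 in H2-Ab1, 3.72 in H2-Eb1 and 3.3 in Cd74. Neighbours in that order were not called different where they were tested, namely ID2 and LAC, ID4 and ID2, ID4 and NUL, ID8 and NUL, and ID8 and ID6. ID6 and REG were not compared by test, and their libraries overlapped in all 4 genes. Across the 27 libraries, Pearson's r of log2 CPM between pairs of the 4 was 0.975 to 0.988. With each stage's mean removed it was 0.929 to 0.969, so animals of 1 stage also ranked alike. Each pair shares its libraries and their depth, and these r are a description. Within a library, the log2 ratio of H2-Ab1 to H2-Aa was 0.467 to 0.689 in NUL and 0.765 to 1.18 in LAC, without overlap, a pair picked after its values were seen. Cd74 over H2-Ab1 had stage means of 1.8 to 1.9 on that scale.

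Ciita (chr16:10480059-10528418, plus strand), the transactivator, was a low transcript. NUL libraries were at 1.91, 0.975, 1.42 and 1.17 CPM, and LAC libraries at 0.673, 0.499 and 0.606 CPM, from 29 to 39 counts each. LAC lay below NUL in every animal (log2 fold change -1.21, SE 0.355, edgeR adjusted p = 0.0253). The call was lost on leaving out LAC_200 (adjusted p = 0.0538, edgeR), LAC_213 (0.114), LAC_240 (0.0728) or NUL_220 (0.0889). All ID2 libraries, at 0.745, 1.25 and 0.728 CPM, lay above all LAC libraries, as in 18.1% of all genes, without being called (log2 fold change 0.63, edgeR adjusted p = 0.283). ID4 gave 0.836, 1.67, 1.59 and 0.695 CPM, ID6 ran from 1.09 through 1.81 to 2.45 CPM, ID8 gave 0.777, 1.7 and 1.39 CPM and REG 2.24, 1.96, 1.44 and 1.03 CPM. The stages after ID2 overlapped NUL throughout. Over the 27 libraries Ciita had an r of 0.762 to 0.798 with H2-Aa, H2-Ab1, H2-Eb1 and Cd74, and of 0.397 to 0.529 with stage means removed. An exon of Ciita shares 329 bases with Dexi on the other strand, and the use of strand is not stated.

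H2-DMa (chr17:34119541-34139101, plus strand) and H2-DMb1 (chr17:34153072-34160230, plus strand) encode the chains of the peptide exchange factor H2-DM. H2-DMa stood at 3.24, 2.19, 3.39 and 1.93 CPM in NUL and at 2.48, 0.963 and 0.987 CPM in LAC. LAC_200 lay within the NUL range and the other LAC animals under it. The change was called (log2 fold change -0.86, SE 0.277, edgeR adjusted p = 0.0414). It depended on single animals: without LAC_200 the log2 fold change was -1.46 (edgeR adjusted p = 0.00137), and the call was lost without LAC_213 (adjusted p = 0.242, edgeR), LAC_240 (0.212), NUL_220 (0.108) or NUL_226 (0.128). ID2 gave 2.15, 1.56 and 2.27 CPM and ID4 3.33, 3.22, 2.44 and 3.05 CPM. These groups did not overlap, as in 7.93% of all genes, and the step was not called (log2 fold change 0.60, edgeR adjusted p = 0.316). ID6 ran from 2.71 through 3.12 to 3.86 CPM, ID8 gave 2.1, 3.52 and 2.79 CPM and REG 4.6, 3.47, 2.44 and 3.38 CPM. Each stage from ID4 on overlapped NUL. Exons of H2-DMa share 360 bases with Brd2 on the other strand.

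H2-DMb1 stood at 1.54, 0.914, 1.91 and 0.806 CPM in NUL and at 0.776, 0.395 and 0.19 CPM in LAC, from 11 to 45 counts in LAC. The groups came close without overlapping (log2 fold change -1.51, SE 0.395, edgeR adjusted p = 0.0123). That call was lost without LAC_213 (adjusted p = 0.0646, edgeR), LAC_240 (0.0898) or NUL_226 (0.0505), and without LAC_200 the log2 fold change was -2.14 (adjusted p = 0.0037, edgeR). H2-DMb1 was the 1 member called in ID2 against LAC, where 8.48% of all genes were called higher. ID2 libraries were at 1.52, 0.869 and 1.17 CPM, above all LAC libraries (log2 fold change 1.38, SE 0.416, edgeR adjusted p = 0.0232). It was no longer called without ID2_224 (adjusted p = 0.104, edgeR), ID2_39 (0.0519), LAC_213 (0.0962) or LAC_240 (0.116), and without LAC_200 the value was 2.01 (adjusted p = 0.00619, edgeR). Without ID2_31, the library with pancreatic RNA, it was still called (log2 fold change 1.57, edgeR adjusted p = 0.0248). The call was lost with the title number as a term (1.40, edgeR adjusted p = 0.0671), with only the compared groups in the fit (1.39, 0.0605) and with limma on log2(TPM + 1) (0.61, adjusted p = 0.0574). ID4 gave 0.867, 1.62, 0.863 and 1.07 CPM, ID6 ran from 0.946 through 1.65 to 2.74 CPM, ID8 gave 1.06, 1.35 and 1.31 CPM and REG 2.42, 1.56, 1.66 and 1.6 CPM. Every REG library was above every ID8 library, as in 3.9% of all genes (edgeR adjusted p = 0.702). H2-DMb1 and its near copy H2-DMb2 had counts that were not whole in 16 libraries each, which marks reads divided between genes, so the level of either is uncertain.

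H2-Oa (chr17:34092340-34095234, plus strand), a chain of the H2-DM inhibitor, was close to the limit of detection, with 0 to 23 counts per library. NUL libraries were at 0.108, 0.122, 0.0955 and 0.152 CPM and LAC libraries at 0.224, 0.0688 and 0 CPM. The count of 0 in LAC_240 allows up to 3 counts, or 0.0519 CPM, by counting error alone. ID4, at 0.0608, 0.0826, 0.0146 and 0.0474 CPM from 1 to 5 counts, lay below NUL, as did 5.44% of all genes. ID8, at 0.181, 0.302 and 0.189 CPM, lay above NUL, as did 5.83% of all genes. Neither passed the test (log2 fold changes -1.20 and 0.91, edgeR adjusted p = 0.395 and 0.627). ID2 was at 0.0634, 0.0689 and 0.121 CPM, ID6 ran from 0.115 through 0.188 to 0.276 CPM, and REG was at 0.015, 0.216, 0.0634 and 0.0547 CPM. Every ID6 library lay above every ID4 library, as in 3.93% of all genes (log2 fold change 1.83, SE 0.668, edgeR adjusted p = 0.0864). No H2-Oa comparison was called at this depth. Its r with the other members was 0.216 to 0.309. Exons of H2-Oa share 321 bases with the antisense gene BC051537, whose reads could not be told apart from its own if strand was not used.

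Cd86 (chr16:36603869-36666081, minus strand) encodes a costimulatory ligand that antigen-presenting cells show to T cells through CD28. It followed another order than the class II chains, lowest in LAC and highest in ID4 (ratio of means 2.11, edgeR adjusted p = 0.00534 over all stages). NUL libraries were at 3.73, 2.29, 2.32 and 2.51 CPM and LAC at 2.14, 2.27 and 1.51 CPM, just below them (log2 fold change -0.46, SE 0.228, edgeR adjusted p = 0.22). ID2 gave 3.17, 2.26 and 3.54 CPM and ID4 4.29, 5.38, 3.03 and 3.88 CPM. ID4 against NUL was not called (log2 fold change 0.61, SE 0.206, edgeR adjusted p = 0.0881). ID6 ran from 2.88 through 3.71 to 4.41 CPM, ID8 gave 2.15, 3.94 and 2.34 CPM and REG 2.53, 2.7, 2.41 and 2.8 CPM. The REG animals lay close together and within the NUL range.

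Xcr1 (chr9:123852315-123862029, minus strand) encodes a chemokine receptor that marks cross-presenting (type 1) dendritic cells. NUL libraries were at 0.623, 0.594, 0.636 and 0.289 CPM and LAC at 0.224, 0.0172 and 0.19 CPM. The LAC values rest on 13, 1 and 11 counts. LAC was below NUL without overlap (log2 fold change -1.88, SE 0.534, edgeR adjusted p = 0.02), and without LAC_213, the animal with 1 count, the call was lost (log2 fold change -1.36, edgeR adjusted p = 0.119). ID2 gave 0.38, 0.234 and 0.546 CPM, above LAC in every animal, as in 18.1% of all genes, without being called (log2 fold change 1.40, edgeR adjusted p = 0.0914). ID4 gave 0.426, 0.314, 0.176 and 0.663 CPM. ID6 ran from 0.31 through 0.504 to 0.598 CPM, ID8 gave 0.544, 0.747 and 0.553 CPM and REG 0.376, 0.293, 0.65 and 0.725 CPM, all overlapping NUL.

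**Figure D2:**
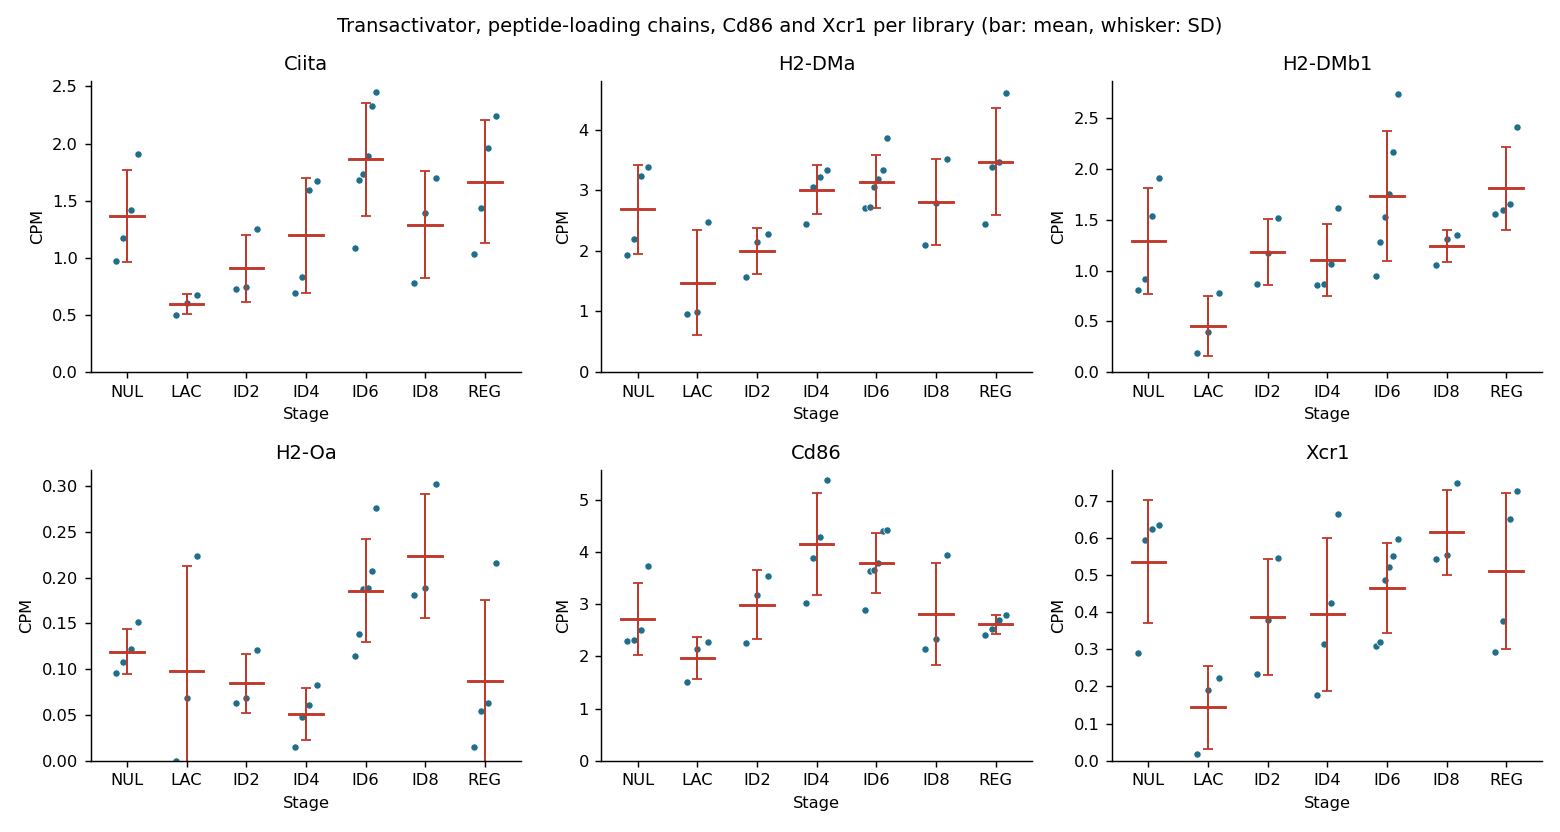
Level of Ciita, H2-DMa, H2-DMb1, H2-Oa, Cd86 and Xcr1 in CPM (vertical axes, from 0) at the 7 stages (horizontal axes). Points are libraries, bars are means and whiskers are SD. H2-Oa stays at or under 0.302 CPM throughout. Cd86 has its highest mean at ID4, with 3.03 to 5.38 CPM, overlapping ID6 at 2.88 to 4.41 CPM.

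The return after weaning was followed in 2 ways, against NUL and from stage to stage. All comparisons with NUL share the same 4 NUL libraries, and neighbouring steps share a stage. In ID2 against NUL, 2 members were called lower, H2-Eb1 and Cd74, where 0.919% of all genes were. H2-Aa (log2 fold change -1.01, edgeR adjusted p = 0.0509) and H2-Ab1 (-0.95, 0.0667) narrowly missed the threshold. In these 4 genes every ID2 library was below every NUL library, as in 8.39% of all genes. Without ID2_31, the library with pancreatic RNA, the log2 fold changes were -1.21 in H2-Eb1 (edgeR adjusted p = 0.0684) and -0.91 in Cd74 (0.145), so neither was called. The count was also 0 without ID2_39 or NUL_226, 1 without NUL_220 or NUL_227, and 4 with DESeq2. With the title number as a term it was 0, at -1.14 in H2-Eb1 (edgeR adjusted p = 0.138) and -0.85 in Cd74 (0.238). No NUL animal and 2 of the 3 ID2 animals had a number under 200.

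In ID4 against NUL no member was called by edgeR, beside 4.25% of all genes, and 2 were under an unadjusted p of 0.05, as were 18.6% of all genes. DESeq2 called 1 and limma on log2 TPM called 0. Fitted values were lower in 8 of the 10, with -0.54 in H2-Eb1 (edgeR adjusted p = 0.24) and -0.40 in Cd74 (0.365). The step from ID2 to ID4 likewise gave no call (1.49% of all genes; 5 members and 13.9% of all genes at an unadjusted p under 0.05).

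From ID4 to ID6 the I-A and I-E chains and Cd74, 4 members, were called higher, against 3.89% of all genes. The log2 fold changes were 0.94 in H2-Eb1 (SE 0.231, edgeR adjusted p = 0.014), 0.82 in Cd74 (SE 0.212, 0.0196), 0.85 in H2-Aa (SE 0.237, 0.0282) and 0.78 in H2-Ab1 (SE 0.235, 0.0419). The members' median was 0.715, against 0.0139 over all genes. H2-Eb1, Cd74 and H2-Oa had every ID6 library above every ID4 library, as did 3.93% of all genes. The count was 0 without ID4_13, 1 without ID4_211, and 2 without ID4_215, ID6_201 or ID6_218. It was also 0 with the title number (under 200 or not) as a term, where the 4 values were 0.91 in H2-Eb1, 0.74 in Cd74, 0.78 in H2-Aa and 0.75 in H2-Ab1, with edgeR adjusted p from 0.0718 to 0.151. All 6 ID6 animals had numbers of 200 or more, so the term rests on ID2 and ID4 alone.

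No member was called against NUL at ID6 (1.08% of all genes), ID8 (0.499%) or REG (0.0852%) by edgeR, DESeq2 or limma. At an unadjusted p under 0.05 there were 1, 0 and 3 members, beside 11.9%, 12.8% and 7.16% of all genes. REG values in H2-Eb1 (log2 fold change 0.56, edgeR adjusted p = 0.63), H2-Ab1 (0.56, 0.657) and Cd74 (0.48, 0.675) were above NUL, with NUL and REG libraries overlapping. ID8 against ID6 (4.12% of all genes called) and REG against ID8 (0.0487%) gave 0 calls. Each had 0 members at an unadjusted p under 0.05, beside 20.5% and 9.02% of all genes.

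**Figure D3:**
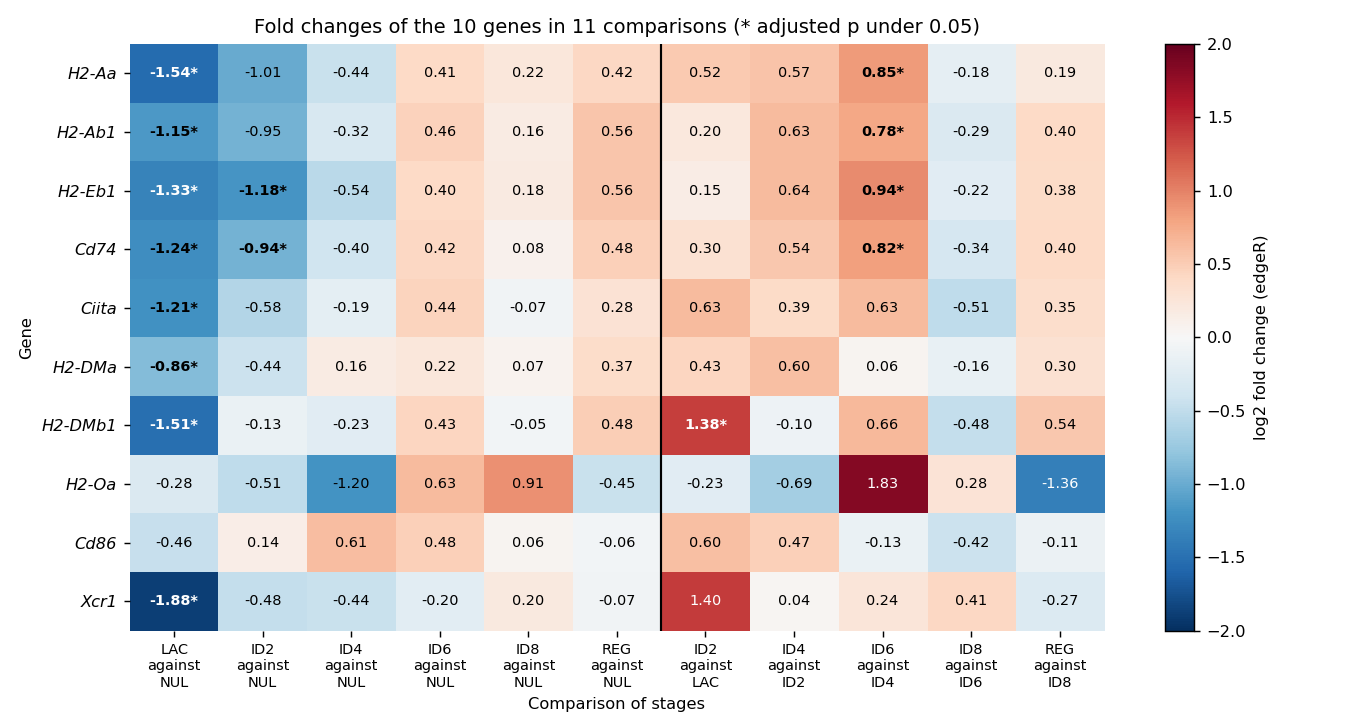
Log2 fold change of the 10 members (rows) in the 11 comparisons (columns), by colour, with a star at an edgeR adjusted p under 0.05. The column of LAC against NUL has 8 stars, ID2 against NUL 2, ID2 against LAC 1 and ID6 against ID4 4.

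Of 11 tested partners of class II (other chains, lysosomal proteases, the thiol reductase Ifi30 and the ubiquitin ligases March1 and March8), 4 fell and 1 rose in LAC against NUL, beside 6.0% of all genes called lower and 5.19% called higher. H2-Ea-ps, annotated as a pseudogene in the reference strain although BALB/c makes the I-E alpha chain, went from 7.42 ± 1.41 CPM (SD, n = 4) to 3.07 ± 0.478 CPM (n = 3) (log2 fold change -1.27, SE 0.313, edgeR adjusted p = 0.00957). Ctss, cathepsin S, which trims the invariant chain, went from 32.8 ± 3.54 to 22.3 ± 4.96 CPM (log2 fold change -0.56, edgeR adjusted p = 0.0107). Lgmn, the protease legumain, went from 57.9 ± 3.91 to 43.1 ± 4.24 CPM (log2 fold change -0.43, edgeR adjusted p = 0.00405). March1, which marks class II for turnover, was the fourth to fall (log2 fold change -0.68, edgeR adjusted p = 0.0381), and Ctsd, cathepsin D, was the gene that rose (log2 fold change 0.50, edgeR adjusted p = 0.0036), both named after their values were seen.

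In ID6 against ID4, 2 of the 11 partners were called, both higher, beside 3.89% of all genes. They were H2-Ea-ps (log2 fold change 0.89, edgeR adjusted p = 0.0324) and H2-DMb2 (1.03, 0.0187). H2-DMb2 stood at 0.505 to 0.848 CPM in ID4 and at 1.01 to 1.94 CPM in ID6, with no overlap, as in 3.93% of all genes. Its counts were not whole in 16 libraries, as given above, so its level is uncertain. Ctss (edgeR adjusted p = 0.834) and Lgmn (0.909) were at 43.5 ± 2.14 and 72.0 ± 1.45 CPM in ID4 (n = 4) and at 45.3 ± 7.95 and 70.9 ± 8.17 CPM in ID6 (n = 6). Lgmn at ID4 was above NUL (log2 fold change 0.31, edgeR adjusted p = 0.0376), where no class II chain was called. There 2 of the 11 partners were called higher, beside 2.64% of all genes.

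Of 19 genes that control class II transcription or carry the interferon signal to it, 1 fell in LAC against NUL, a share near the 6.0% of all genes called lower. That was Spi1, which encodes the myeloid factor PU.1, from 6.48 ± 0.649 CPM (n = 4) to 3.84 ± 1.08 CPM (n = 3) (log2 fold change -0.76, SE 0.178, edgeR adjusted p = 0.0057). The subunits of the X box complex, named after their values were seen, were not called in LAC against NUL: Rfx5 stood at 13.8 and 16.4 CPM in NUL and LAC (edgeR adjusted p = 0.498), Rfxap at 13.2 and 14.6 CPM (0.577) and Rfxank at 10.4 and 8.75 CPM (0.351). Ifngr1, an interferon gamma receptor chain, was at 24.9 ± 3.16 CPM in NUL and at 17.8 ± 0.659 CPM in ID2 (log2 fold change -0.49, edgeR adjusted p = 0.0104). Without ID2_31 the value was -0.52 (edgeR adjusted p = 0.0324). It was the 1 of the 19 called in ID2 against NUL, beside 0.919% of all genes called lower. In ID6 against ID4, 3 of the 19 were called, 1 higher and 2 lower, beside 3.89% and 4.64% of all genes, with a list median of -0.04. The 1 was Ifngr1 (log2 fold change 0.38, SE 0.0918, edgeR adjusted p = 0.0109). The 2 were Ifngr2, the other receptor chain (-0.36, 0.0307), and Nlrc5, the transactivator of MHC class I (-0.49, 0.0381), both named after their values were seen. Irf8, a factor of dendritic cells and macrophages, was above NUL in ID4, at 10.1 ± 1.92 against 6.32 ± 1.27 CPM (log2 fold change 0.67, edgeR adjusted p = 0.00973). It was the 1 of the 19 called in ID4 against NUL, beside 2.64% of all genes called higher.

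Among 14 targets of interferon gamma, 2 fell in LAC against NUL (6.0% of all genes) and 4 rose in ID2 against LAC (8.48% of all genes). The guanylate-binding protein Gbp2 went from 8.82 ± 2.52 CPM in NUL to 4.04 ± 0.586 in LAC (log2 fold change -1.13, edgeR adjusted p = 0.00805) and stood at 12.0 ± 1.0 CPM in ID2 (log2 fold change 1.57 against LAC, edgeR adjusted p = 0.000768). Gbp3, of the same family, followed with -1.03 (edgeR adjusted p = 0.018) and 1.54 (0.00133). Psmb8, an immunoproteasome subunit, rose from LAC to ID2 (log2 fold change 0.67, edgeR adjusted p = 0.0038) and was above NUL in ID4 (0.55, 0.0142). In the same step from LAC to ID2, 8 of 11 Kupffer cell and 5 of 7 pan-leukocyte genes were called higher, with sums of 453 to 567 CPM and 42.7 to 45.5 CPM in ID2. So were 4 of 7 monocyte and 5 of 7 sinusoidal endothelial genes, but 0 of 11 B cell and 0 of 9 T cell genes. The part of these cells in the rise of the targets was not tested. H2-DMb1 was also called higher, as given above. The log2 fold changes of the I-A and I-E chains were 0.15 in H2-Eb1, 0.20 in H2-Ab1 and 0.52 in H2-Aa, and that of Cd74 was 0.30, with none of these 4 called. Without ID2_31, chosen as a setting for these lists after seeing the data, 5 targets were called in that step, Gbp2, Gbp3 and Psmb8 among them. Beside them were 8 of 11 Kupffer cell, 3 of 7 pan-leukocyte, 2 of 7 monocyte and 3 of 7 sinusoidal endothelial genes. From ID4 to ID6, where the I-A and I-E chains and Cd74 rose, the targets had a median log2 fold change of -0.43. Of the 14, 1 was called, where 4.64% of all genes were called lower. It was Iigp1, an interferon-induced GTPase, which was lower (-0.42, edgeR adjusted p = 0.0355, named after its values were seen), and 8 had an unadjusted p under 0.05, as had 22.9% of all genes in either direction, each with a negative fold change.

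Of 14 other genes of costimulation, 7 passed the filter. In LAC against NUL 0 of the 7 were called by edgeR, and 2 had an unadjusted p under 0.05 (23.6% of all genes). Cd83, a surface protein of mature dendritic cells, stood at 1.46 ± 0.614 CPM in NUL (n = 4), 1.29 ± 0.605 in LAC (n = 3) and 3.5 ± 1.18 in ID2 (n = 3). It was higher in ID2 than in LAC (log2 fold change 1.44, SE 0.344, edgeR adjusted p = 0.00567) and above NUL in ID2 (1.27, 0.0223; 2.32% of all genes called higher) and ID4 (1.33, 0.00794; 2.64%). Without ID2_31 the value against LAC was 1.41 (edgeR adjusted p = 0.0185), and that of ID2 against NUL was 1.24 and no longer called (0.0728). Icos, a costimulatory receptor of T cells, differed over all stages (edgeR adjusted p = 0.0249) and was not called in LAC against NUL (log2 fold change -0.92, edgeR adjusted p = 0.0604).

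Markers of the cells that could carry class II moved too. In LAC against NUL, where 6.0% of all genes were called lower, 7 of 7 pan-leukocyte genes fell (median log2 fold change -0.715), and the list summed to 44.6 to 52.1 CPM in NUL and 25.6 to 35.2 CPM in LAC. Of 11 Kupffer cell genes 8 fell (median -0.574, 499 to 627 CPM in NUL and 329 to 461 CPM in LAC). Counts of genes called lower were 4 of 7 for monocytes, 3 of 11 for B cells, 2 of 9 for T cells, 2 of 8 for dendritic cells in general and type 2, 2 of 6 for type 1 dendritic cells beside Xcr1, 1 of 5 for plasmacytoid dendritic cells and 2 of 7 for sinusoidal endothelial cells. Clec9a, a type 1 dendritic cell receptor, went from 1.35 ± 0.497 to 0.649 ± 0.192 CPM (log2 fold change -1.05, edgeR adjusted p = 0.011), and Flt3, a receptor dendritic cells depend on, from 0.428 ± 0.0638 to 0.0978 ± 0.0697 CPM (-2.11, 0.0111), from 1, 8 and 8 counts in LAC. Cd79b, part of the B cell receptor, went from 1.24 ± 0.467 to 0.351 ± 0.0189 CPM (-1.81, 0.00437). Not all summed levels fell. The B cell list had a median log2 fold change of -1.07 over its genes, while its sum was 13.1 to 24.4 CPM in NUL and 14.3 to 23.9 CPM in LAC. Cd79b was a small part of that sum, which does not follow the typical gene of the list. The plasmacytoid list had a median of -1.53 and a sum of 179 to 223 CPM in NUL and 206 to 265 CPM in LAC, most of it from Bst2, at means of 180 and 228 CPM (log2 fold change 0.34, edgeR adjusted p = 0.0574). Sums for type 1 dendritic cells went from 29.9 to 37.2 CPM in NUL to 22.4 to 27.4 CPM in LAC. Of that list Wdfy4, Clec9a and Batf3, at NUL means of 5.0, 1.35 and 0.502 CPM, were a small part of the sums. No list was at 0 in LAC. Hepatocyte genes rose in 3 of 8, beside 5.19% of all genes called higher, with Alb from 89800 ± 10400 to 177000 ± 23000 CPM (log2 fold change 0.98, edgeR adjusted p = 5.48e-05). The part of these markers in the fall of the members was not tested.

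After weaning, at ID4, 7 of 11 Kupffer cell genes and 2 of 7 pan-leukocyte genes were above NUL (2.64% of all genes), with sums of 799 to 885 and 55.3 to 68.9 CPM that lay above all NUL sums. The 10 members summed to 83.8 to 136 CPM in ID4 and 107 to 157 CPM in NUL, with overlap. From ID4 to ID6, where H2-Aa, H2-Ab1, H2-Eb1 and Cd74 rose, 0 of 11 Kupffer, 0 of 7 pan-leukocyte, 0 of 7 monocyte, 0 of 11 B cell and 0 of 9 T cell genes were called by edgeR, with 1, 1, 0, 1 and 3 at an unadjusted p under 0.05 (22.9% of all genes). Their median log2 fold changes were -0.09, 0.14, -0.25, 0.38 and 0.60, beside 0.715 for the members. Of the dendritic cell genes 1 of 6 for type 1, 0 of 8 in general and type 2 and 0 of 5 for plasmacytoid cells were called. Of all genes 3.89% were called higher and 4.64% lower in this step. The 1 was Clec9a, which was higher (log2 fold change 0.69, SE 0.221, edgeR adjusted p = 0.0489). The type 1 sums were 30.8 to 37.7 CPM in ID4 and 31.4 to 37.7 CPM in ID6. Clec9a was a small part of them, at means of 1.01 CPM in ID4 and 1.62 CPM in ID6. Plasmacytoid sums were 184 to 222 CPM in ID4 and 225 to 264 CPM in ID6, without overlap, most of them from Bst2, at means of 191 and 231 CPM (edgeR adjusted p = 0.0807). The median log2 fold changes of the 3 dendritic cell lists were 0.14 for type 1, 0.26 in general and type 2 and 0.02 for plasmacytoid cells. T cell genes summed to 3.57 to 4.75 CPM in ID4 and 4.49 to 7.15 CPM in ID6.

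Cd74 was set against Ptprc, which encodes the pan-leukocyte surface protein CD45, within each library. The log2 ratio of their CPM was 2.59 to 2.98 in NUL, 2.17 to 2.64 in LAC, 1.78 to 2.34 in ID2 and 1.66 to 2.44 in ID4. It was 2.42 to 3.18 in ID6, 2.35 to 3.01 in ID8 and 2.52 to 4.07 in REG. In this ratio ID2 and ID4 did not overlap NUL, and LAC did. The place of LAC, ID2 and ID4 depended on the gene Cd74 was set against. Over Clec4f, a Kupffer cell lectin, the ratio was -1.43 to -1.04 in NUL and lower without overlap in LAC, at -2.22 to -2.01. Over the B cell gene Cd79a it was 5.65 to 7.23 in NUL and 5.71 to 6.47 in LAC. There LAC overlapped NUL. Ptprc itself stood at 11 ± 1.52 CPM in NUL (n = 4), 6.41 ± 1.56 in LAC (n = 3) and 13.6 ± 1.93 in ID4 (n = 4), with log2 fold changes against NUL of -0.78 in LAC (edgeR adjusted p = 0.00377) and 0.31 in ID4 (0.296). These genes and ratios were picked after their values were seen, and no test was made of the ratios.

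**Figure D4:**
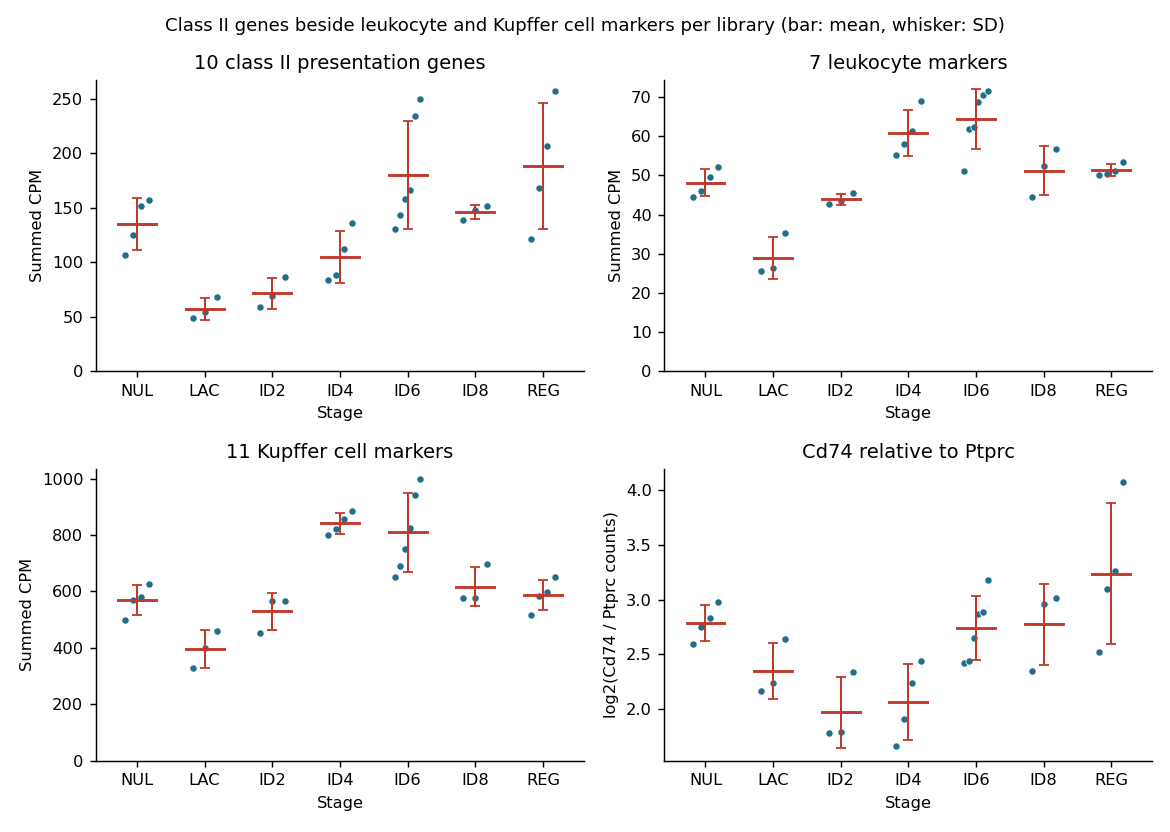
Summed CPM of the 10 members, of 7 pan-leukocyte genes and of 11 Kupffer cell genes, and the log2 ratio of Cd74 to Ptprc (vertical axes), at the 7 stages (horizontal axes). Points are libraries, bars are means and whiskers are SD; at ID4 the Kupffer sums are 799 to 885 CPM, above all NUL sums, while the member sums of 83.8 to 136 CPM overlap the NUL sums of 107 to 157 CPM.

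The 10 genes outside the list whose log2 CPM followed H2-Aa, H2-Ab1, H2-Eb1 and Cd74 most closely over the 27 libraries were ranked by mean Pearson's r. H2-Ea-ps came first (0.962, and 0.875 with stage means removed). Then came Cd52, a lymphocyte surface protein and 1 of the 7 pan-leukocyte genes above (0.848 and 0.679), H2-DMb2 (0.828 and 0.593) and Nkg7, of cytotoxic lymphocyte granules (0.811 and 0.592). The T cell kinase Lck (0.803 and 0.486) and the interleukin receptor chain Il2rb (0.795 and 0.493) were also among the 10. Capn3 (0.807 and 0.333), Arhgap45 (0.807 and 0.376), Ces3a (0.806 and 0.363) and Atp2a3 (0.805 and 0.276) had values that dropped more with stage means removed. All share the libraries and their depth with the members.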

How the data were processed

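Whole livers of 27 mice were sequenced, 1 library per animal, with groups taken from the sample titles. Per the submitters' processing notes the tools were STAR 2.6.1a and RSEM 1.3.1 with mm10/GRCm38. RSEM's expected counts, deposited by the authors per gene, are estimates of reads and are not scaled between libraries. TPM, also deposited by the authors, is scaled by length. Strand use, trimming and read filters are not given in the sources used here. The 51826 identifiers were named with GENCODE M21, and 193 had no symbol there (0.0147% of counts).

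Expected counts were rounded and fitted in R 4.3.3 with edgeR 4.0.16 (filterByExpr, TMM, robust quasi-likelihood, all 27 libraries in 1 fit by stage). This kept 16428 genes, with a biological coefficient of variation of 0.19. P-values were adjusted by Benjamini-Hochberg over all genes within each comparison; SE is the log2 fold change over the root of F. Alternatives used DESeq2 1.42.0, limma 3.58.1 on log2(TPM + 1), upper-quartile scaling, no filter, the title number as a term, only the compared groups, an adjusted p under 0.01, and each animal left out. The fit of LAC against NUL was tested on simulated counts. No library pair of a group agreed within sampling noise (smallest chi-square per gene 43.0). Limits from counts cover counting error only.

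The members and lists were chosen with earlier results of these data known. Named beside the members were up to 3 genes per list with the smallest joint p, and the 10 genes most alike in pattern. The partner list held 15 symbols. H2-Ea, Marchf1 and Marchf8 were not found, while H2-Ea-ps, March1 and March8, listed beside them, were. H2-Eb2 was not tested. RefSeq promoters were searched for motifs, and windows reaching into an annotated exon (2) were not printed.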

Additional observations from a re-analysis of the deposited data

Results flagged for a closer look

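Over 40 pairs of a member and a group of 4 to 6 animals, 3 had an animal far from the others. Chance gives about 1 in 20 of such pairs, and the pairs share animals. H2-DMb1 was at 2.42 CPM in REG_203, against 1.56 to 1.66 CPM in the other REG animals. Cd86 was at 3.73 CPM in NUL_220, against 2.29 to 2.51 CPM in the other NUL animals. Xcr1 was at 0.289 CPM in NUL_227, against 0.594 to 0.636 CPM in the other NUL animals.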

How the results depend on the processing

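No paired analysis was possible because no replicate number occurs in more than 1 group. In LAC against NUL, 8 calls became 3 at an adjusted p under 0.01 and 5 with only the compared groups (9 members tested), and 4 to 8 with 1 animal left out. In ID2 against NUL, 2 calls became 4 with DESeq2, with log2(TPM + 1) and with only the compared groups, 1 with no filter, 0 with the title number and at 0.01, and 0 to 2 with 1 animal left out. In ID4 against NUL, 0 became 1 with DESeq2 and 0 to 1 with 1 animal left out. In ID2 against LAC, 1 became 0 with log2(TPM + 1), the title number, 0.01 and only the compared groups, and 0 to 2 with 1 animal left out (2 without LAC_200). In ID6 against ID4, 4 became 2 with no filter and 0 with the title number and at 0.01, and 0 to 4 with 1 animal left out. The 8 members differing over all stages stayed at 7 to 9. The other comparisons stayed at 0 in all settings run. The causes were not tested. Of the single-gene values, all of members, 151 kept direction and call, 70 kept direction only and 0 reversed. Listed genes outside the members were followed only in the fit without ID2_31. On log2(TPM + 1), which by construction understates low genes, Ciita was at -0.23 and Xcr1 at -0.16 in LAC against NUL. BALB/c carries another class II haplotype than the C57BL/6 reference, which bears on the level of each chain and was not tested. Counts under 50 limit H2-Oa in all libraries, Xcr1 in most, Ciita in LAC and in some ID2, ID4 and ID8 libraries, and H2-DMb1 in LAC and 1 ID8 library.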
